A study of Danio rerio with 6 samples.

Results

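The short sharp regions were the places in the zebrafish genome at which a narrow ATAC-seq peak was called in every sample. Overlapping peaks of the 6 deposited lists (1 common base or more) were joined into merged regions on chromosomes 1 to 25, leaving out chromosome 4 from position 27000000 on. A region was kept when it held a peak in all 6 lists and when every one of its peaks was shorter than 150 bases. This rule kept 5330 regions, which were 6.27% of the 85003 merged regions of the series and 18.2% of the 29225 regions within these chromosomes that had a peak in all 6 lists. The other 23895 of those, with at least 1 peak of 150 bases or more, are called the longer shared regions. The regions were thus chosen by the presence and the length of their peaks, and peak length, height and summit position, which come from the same peak calls, are therefore given as a description without a test.

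The samples were 3 replicates of control embryos and 3 replicates of embryos exposed to PF-06726304 acetate (Ezh2i), all of the AB wild-type strain and all collected at 50% epiboly (5.5 hpf). The labels call the controls unexposed, and the methods of the study give 0.05% DMSO for them and 5 μM inhibitor for the exposed embryos, from about the 2-cell stage on. Each sample was a pool of whole embryos, so that more cells with an open site and a more open site in each cell cannot be told apart. The libraries held from 5894731 to 6877909 fragments at the time of peak calling. Nothing in the labels states that replicates came from separate clutches, so the p-values measure only the spread between these samples.

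ATAC-seq uses the transposase Tn5, which inserts sequencing adapters where DNA is not wrapped around nucleosomes, so that fragments pile up at promoters, enhancers and other open sites. A narrow peak can be a short stretch of open DNA, such as that beside a bound transcription factor or between neighbouring nucleosomes. The called length also rose with peak height in these lists, so a narrow peak can also be a low one. At 50% epiboly the zygotic genome has recently become active, and in zebrafish the pioneer factors Nanog, Pou5f3 and Sox19b are known to open sites before that stage. Ezh2 is the catalytic subunit of the Polycomb Repressive Complex 2, which methylates lysine 27 of histone H3 (H3K27me3), a mark of repressed genes. The comparison of Ezh2i with control asked whether blocking this enzyme changed the openness of these sites. No genome sequence or gene annotation of GRCz11, the build of the lists, was used here, so the regions are given by position and without gene names or sequences.

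The short sharp regions were low and compact. The region itself, merged over the 6 lists, had a median length of 140 bases (lowest 85, highest 254), against 227 bases at the longer shared regions. Each of the 5330 regions held exactly 1 peak in each list. The median peak length was 114 bases in each control and 118, 114 and 117 bases in Ezh2i samples 1, 2 and 3. The peak caller gave an average fragment size of 75 to 79 bases, which was also the shortest peak length, and between 22 and 39 of the 5330 peaks of a list had exactly that length. All 6 peaks were under 120 bases at 1014 regions (19.0%) and under 100 bases at 75 regions (1.41%), whereas all 6 were 120 bases or longer at 438 regions (8.22%). The shortest and the longest peak at a region differed by a median of 33 bases. The limit of 150 bases did not fall in a gap of the data. The 202 regions whose longest peak was 149 bases had a median of the mean height of 19.5 fragments, and the 177 shared regions whose longest peak was 150 bases had 19.8 fragments.

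Peak height here means the pileup, that is how many fragments cover the base at the summit. It is a depth at a point, so reads elsewhere in the region do not enter it. In the controls the lowest height was 5 fragments in every sample, the medians were 17, 18 and 18 fragments, and the highest values were 193, 268 and 175 fragments in controls 1, 2 and 3. In the Ezh2i samples the lowest height was again 5 fragments, the medians were 20, 19 and 20 fragments, and the highest values were 207, 199 and 140 fragments in samples 1, 2 and 3. The 3 medians of the Ezh2i samples thus lay above the 3 medians of the controls, by 1 to 3 fragments. At the longer shared regions the medians were 26, 27 and 24 fragments in the controls, against 29, 26 and 30 in the Ezh2i samples, and these overlapped. The Ezh2i mean of these medians exceeded the control mean by 2 fragments at the short sharp regions and by 2.67 at the longer ones. These heights were not scaled for the fragments of each library.

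**Figure D1:**
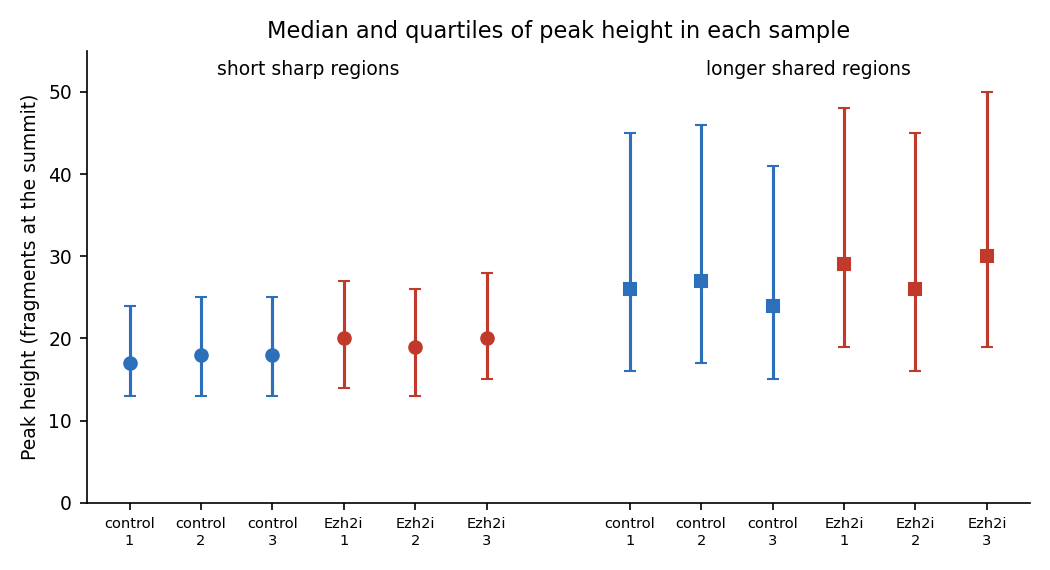
Peak height in fragments at the summit (vertical axis) in each of the 3 control (blue) and 3 Ezh2i (red) samples, for the short sharp regions (circles) and the longer shared regions (squares). Points are medians over regions and bars run from the lower to the upper quartile, and the short sharp regions had medians of 17 to 20 fragments in all samples.

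Averaged over the 6 samples, the height of a short sharp region had a median of 18.8 fragments, with quartiles at 14.3 and 25.5, against a median of 27.0 fragments at the longer shared regions. Few were tall, as 96 of them (1.80%) had a mean height of 50 fragments or more and 4 had 100 or more, whereas 21.5% of the longer shared regions reached 50. All 6 heights were under 20 fragments at 1486 regions, and all 6 were 20 fragments or more at 1291 regions. The share of short sharp regions among all shared regions fell with height, from 30.0% at mean heights of 5 to 10 fragments to 22.4% at 20 to 30, 11.9% at 30 to 50 and 2.14% at 50 to 100. Within each sample, longer peaks tended to be taller also among the short sharp regions, with a Spearman correlation of length and height between 0.312 and 0.388 over 5330 regions. Both values come from the same peak, and regions of a library are not independent replicates.

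The fold enrichment is the ratio of height to the peak caller's background in the same library, with 1 added to each. The mean of its sample medians was 10.7 ± 0.218 in controls and 11.5 ± 0.500 in Ezh2i samples (SD, n = 3). The longer shared regions had 14.04 ± 0.901 and 15.05 ± 0.989. The background itself, averaged over the samples, had a median of 0.612 fragments at the short sharp regions and of 0.824 fragments at the longer ones. At mean heights of 15 to 20 fragments the backgrounds were alike, with medians of 0.556 and 0.546 fragments, and the fold enrichment was 11.6 in both classes. At 30 to 50 fragments the short sharp regions had the higher background, 1.25 against 1.04 fragments, and the lower fold enrichment, 16.2 against 18.9.

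The summit is the base with the most fragments. The distance between the leftmost and the rightmost of the 6 summits had a median of 32 bases at the short sharp regions, with quartiles at 19 and 45, and of 43 bases at the longer shared regions. It was 10 bases or less at 582 regions (10.9%), against 9.52% of the longer shared regions, and 0 at 4 regions. A stretch of DNA common to all 6 peaks existed at 5326 of the 5330 regions, with a median length of 88 bases, and all 6 summits lay inside it at 4899 regions (91.9%). Of the longer shared regions, 98.7% had such a stretch and 88.0% had all 6 summits inside it. The summits lay close to the middle of the region, at a median of 8.5 bases from its centre. The spread of summits narrowed with height, from 59 bases at mean heights of 5 to 10 fragments to 33 bases at 15 to 20, 22 bases at 30 to 50 and 16 bases at 50 to 100. At each of these heights it was narrower than at the longer shared regions, which had 91, 51, 35 and 31 bases. The length limit restricts how far apart the summits of a short sharp region can lie, so the rule itself bears on this contrast. The mean summit of the Ezh2i samples minus that of the controls had a median of 0 bases, with quartiles at -6.67 and 6.58 bases, so that no common shift of the summits was seen.

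**Figure D2:**
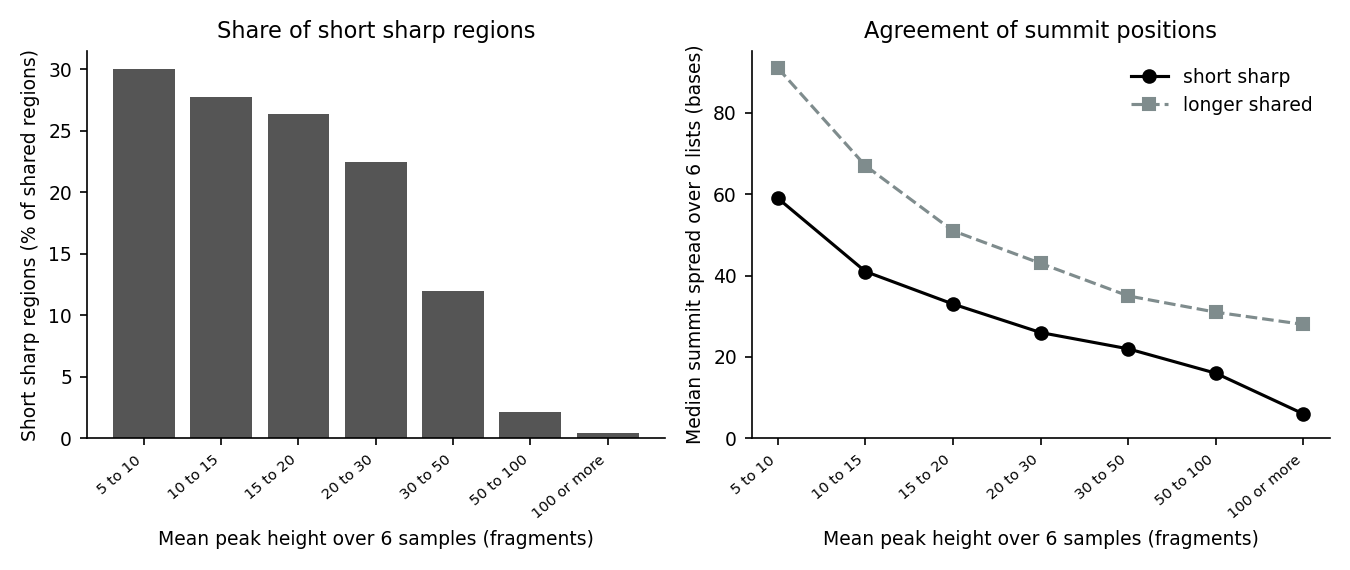
Left, the short sharp regions as a percentage of all regions with a peak in every list, by mean peak height over the 6 samples in fragments. Right, the median distance in bases between the outermost of the 6 summits of a region, for the short sharp regions (circles) and the longer shared regions (squares), which fell from 59 to 16 bases and from 91 to 31 bases between 5 to 10 and 50 to 100 fragments.

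The short sharp regions often had a neighbour close by. The gap to the nearest other merged region of any kind had a median of 1717.5 bases, with quartiles at 403 and 5825 bases. At the longer shared regions the median gap was 2966 bases, and at the 42518 regions on the same chromosomes that held peaks under 150 bases alone but in only 1 to 5 lists it was 3573.5 bases. Another region lay within 250 bases of 873 short sharp regions (16.4%) and within 1000 bases of 2160 (40.5%), against 11.2% and 29.9% of the longer shared regions and 10.8% and 26.6% of the short regions in 1 to 5 lists. No other region lay within 10000 bases of 757 short sharp regions (14.2%), against 18.9% of the longer shared regions.

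The merged regions come from all lists, and the same was therefore measured inside each list. The median gap from the peak of a short sharp region to the next peak of the same list was 3715.5, 3715 and 3643 bases in the control lists, by replicate number, against 2949, 3456 and 2966 bases in the Ezh2i lists. In the same order, the longer shared regions had gaps of 5691, 5538, 5692, 4971, 5358 and 4878 bases. The short sharp regions were thus closer to their neighbours in 6 of 6 lists. The same regions were measured in each list, so the lists are not separate tests of this. Overlapping peaks are joined and the regions were chosen by peak length, so the rule also bears on the gaps. The gaps were smaller in all 3 Ezh2i samples than in all 3 controls for both kinds of region. The lists of Ezh2i samples 1 and 3 were the longest, with 56725 and 57178 peaks against 48291 to 52026 in the other lists, and the part of list length in these gaps was not tested.

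The gap also varied with height. The median gap was 6629.5 bases at mean heights of 5 to 10 fragments, 1775 bases at 15 to 20 and 899 bases at 30 to 50, while the longer shared regions of the same heights had 6846, 3785.5 and 2131 bases. Within 1000 bases of another region lay 14.2%, 39.1% and 53.9% of the short sharp regions at these heights and 11.9%, 25.4% and 35.7% of the longer ones. At 50 to 100 fragments the median gap was 699.5 bases over 92 short sharp regions, but it was 2929 bases over the 4 regions of 100 fragments or more, so the decrease did not extend to these. The longer shared regions had 1984.5 and 2302 bases there.

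Distances between summits were not spread evenly. For the nearest region, the distance between the summits was most often 250 to 275 bases, which held 216 short sharp regions (4.05%). The number then fell to 34 regions (0.638%) at 350 to 375 bases and rose again to 101 regions (1.89%) at 450 to 475 bases. In windows of 100 bases, 587 regions (11.01%) had their nearest summit at 250 to 350 bases, 240 (4.50%) at 350 to 450 and 305 (5.72%) at 450 to 550. The longer shared regions also had 2 maxima, at 300 to 325 (1.65%) and 475 to 500 bases (1.24%) with 0.824% at 375 to 400 bases between them, and held 5.97%, 3.66% and 4.31% in the windows of 100 bases. At short distances the lengths of the peaks themselves set a lower limit, which differs between the classes. A pair of short sharp regions counts at each of its members.

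**Figure D3:**
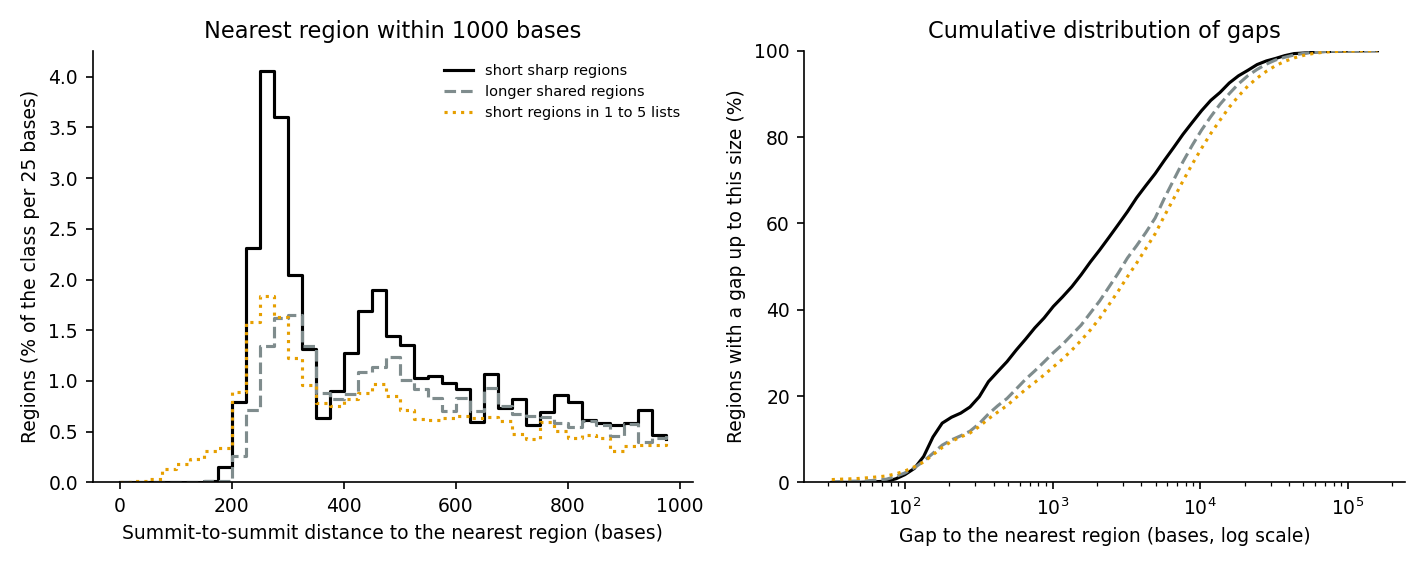
Left, the distance in bases from the summit of a region to that of its nearest region, as a percentage of each class per 25 bases, with maxima of the short sharp regions (solid line) at 250 to 275 and 450 to 475 bases. Right, the percentage of regions whose nearest region lies within a given gap (log scale), which at 1000 bases was 40.5% for the short sharp regions, 29.9% for the longer shared regions (dashed) and 26.6% for the short regions in 1 to 5 lists (dotted).

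The nearest region was mostly one that was not found in every list. Among the 2160 neighbours within 1000 bases, 1146 (53.1%) were not in every list, 721 (33.4%) were longer shared regions and 293 (13.6%) were short sharp regions. Of all regions on these chromosomes 64.3%, 29.2% and 6.50% were of these kinds, so short sharp regions were more frequent among the neighbours than among all regions. This was also so beside the longer shared regions, where 10.0% of the 7136 neighbours within 1000 bases were short sharp regions. Most neighbours of the short sharp regions within 1000 bases were not taller, as 817 (37.8%) had a greater mean height. The median neighbour height was 17.0 fragments, beside 21.4 fragments at the short sharp regions themselves. The height of a neighbour that was not in every list was averaged over the lists with a peak there. The short sharp regions needed a peak in every list, so the rule bears on this contrast. Longer shared regions had a taller neighbour less often, at 20.9% of those with a neighbour within 1000 bases. Their neighbours had a median of 17.55 fragments and the longer shared regions themselves 32.2, so the classes differed mainly in their own heights. The gap from a short sharp region to the next short sharp region had a median of 57374.5 bases, and to the next longer shared region of 10884 bases.

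The regions were found along all chromosomes at similar shares. They made up between 16.3% (chromosome 25) and 20.4% (chromosome 11) of the shared regions of a chromosome. Their density lay between 3.14 per 1000000 bases on chromosome 18 and 5.08 on chromosome 23, over the span from the first to the last peak of the chromosome. Of the short sharp regions, 368 (6.90%) lay within 1000000 bases of the outermost peaks, against 6.73% of the longer shared regions. Within 10000 bases of the start of a short sharp region there were at most 3 of them, which happened 22 times.

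The first of these places in chromosome order was on chromosome 1. Its first region, from 54110766 to 54110890 of GRCz11, had 49, 57 and 45 fragments in the controls, against 60, 58 and 56 in the Ezh2i samples. The second, from 54111432 to 54111569, had 74, 86 and 70 fragments in the controls, against 62, 74 and 82 in the Ezh2i samples. The third, from 54120298 to 54120402, had 30, 33 and 25 fragments in the controls, against 34, 31 and 36 in the Ezh2i samples. The normalized heights of the exposures overlapped at each of them.

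The closest pair of short sharp regions lay on chromosome 14, from 12071411 to 12071590 and from 12071644 to 12071786, with 53 bases between them. The first had 15, 14 and 16 fragments in the controls, against 11, 12 and 10 in the Ezh2i samples, and did not overlap (log2 difference -0.58 with a standard error of 0.20, limma adjusted p-value 0.746). The second had 11, 11 and 13 fragments in the controls, against 7, 11 and 20 in the Ezh2i samples, and overlapped. The next pair lay on chromosome 10, from 27741498 to 27741677 and from 27741753 to 27741868, 75 bases apart, with 18.2 and 17.2 fragments. At the other end, the most isolated region lay on chromosome 12 from 26152253 to 26152403, with 128664 bases to its nearest neighbour and heights of 8, 10 and 13 fragments in the controls, against 13, 12 and 16 in the Ezh2i samples. The next most isolated ones were on chromosome 1, from 38537876 to 38538022 and from 14655786 to 14655915, with gaps of 122158 and 96471 bases and mean heights of 13.7 and 19.3 fragments. At the first of these the heights were 16, 15 and 17 fragments in the controls, against 11, 9 and 14 in the Ezh2i samples, without overlap (log2 difference -0.65 with a standard error of 0.20, limma adjusted p-value 0.746). The mean heights of the paired and the isolated regions lay between 12 and 19.3 fragments.

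The 10 tallest short sharp regions were singled out by their mean height. The tallest was on chromosome 7 from 8305 to 8450, close to the start of the chromosome, with 193, 268 and 165 fragments in controls 1, 2 and 3 and 207, 136 and 132 fragments in Ezh2i samples 1, 2 and 3. The fifth was only a short way off, from 6737 to 6876, with 72, 155 and 62 fragments in the controls, against 141, 54 and 77 in the Ezh2i samples. At both places control 2 and Ezh2i sample 1 were the highest of their groups, and the groups overlapped. The background was 13.3 and 14.0 fragments there, far above the median of 0.612, so that the fold enrichments were only 12.9 and 6.10. The 6 summits of these regions lay within 1 and 4 bases of each other.

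The second tallest, on chromosome 17 from 46494056 to 46494181, had 133, 165 and 175 fragments in the controls, against 120, 199 and 130 in the Ezh2i samples. The third, on chromosome 3 from 62628377 to 62628487, was the steadiest of the tall ones, with 145, 138 and 153 fragments in the controls, against 163, 152 and 140 in the Ezh2i samples. It was also the most enriched of the 10, at 67.1-fold over a background of 1.23 fragments, and no peak exceeded 111 bases in length there. The fourth, on chromosome 10 from 16797838 to 16797957, had 129, 156 and 140 fragments in the controls, against 112, 172 and 87 in the Ezh2i samples, over a background of 10.6 fragments. In each of these 3 regions the exposures overlapped, and the spread between Ezh2i samples was the larger one.

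The other 5 of the 10 had mean heights between 71.8 and 78.5 fragments. At 2 of them the Ezh2i samples all lay below the controls in normalized height. This was so at 5.39% of the 30071 regions of the series with a peak in every list, and so few tall regions cannot be set against that share. The region on chromosome 3 from 60038695 to 60038839 had 85, 81 and 95 fragments in the controls, against 56, 75 and 79 in the Ezh2i samples, with a log2 difference of -0.41 (standard error 0.21, with 0.810 as its limma adjusted p-value). The region on chromosome 21 from 3897868 to 3898015 had 88, 84 and 71 fragments in the controls, against 66, 60 and 67 in the Ezh2i samples, with a log2 difference of -0.42 (standard error 0.17, with 0.772 as its limma adjusted p-value). At the remaining 3, on chromosomes 3 (14427279 to 14427424), 1 (the region of 54111432 given above) and 20 (46559602 to 46559746), the exposures overlapped.

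For the comparison of exposures, log2 heights were quantile-normalized over all 30071 regions of the series with a peak in every list and fitted with limma, with Benjamini-Hochberg adjustment over all of them. No short sharp region differed between Ezh2i and control at an adjusted p-value of 0.05. The background of such calls over all regions tested was 0%, and a region without a peak in 1 of the samples could not be among the short sharp regions. The smallest adjusted p-value among the short sharp regions was 0.746. In all 354 short sharp regions (6.64%) had an unadjusted p-value under 0.05, where the background over all regions tested was 6.24%. Of these, 155 (2.91%) were higher in Ezh2i and 199 (3.73%) lower, beside backgrounds of 3.19% and 3.05%. The share was thus a little below the background for higher regions and a little above it for lower ones. Regions whose peak reached the length limit in any sample were left out, and the part of this in these shares was not tested.

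All 3 Ezh2i samples lay above all 3 controls at 240 short sharp regions (4.50%, background 5.69%) and below them at 283 (5.31%, background 5.39%), in normalized height. Together these were 523 regions (9.81%, background 11.1%). The log2 differences, Ezh2i minus control, had a median of -0.017 over the short sharp regions and of -0.0012 over all regions tested, and the middle of the class lay between -0.19 and 0.16 (quartiles). The most extreme values were -1.07 and 0.93, and 1 region reached a change of 2-fold.

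**Figure D4:**
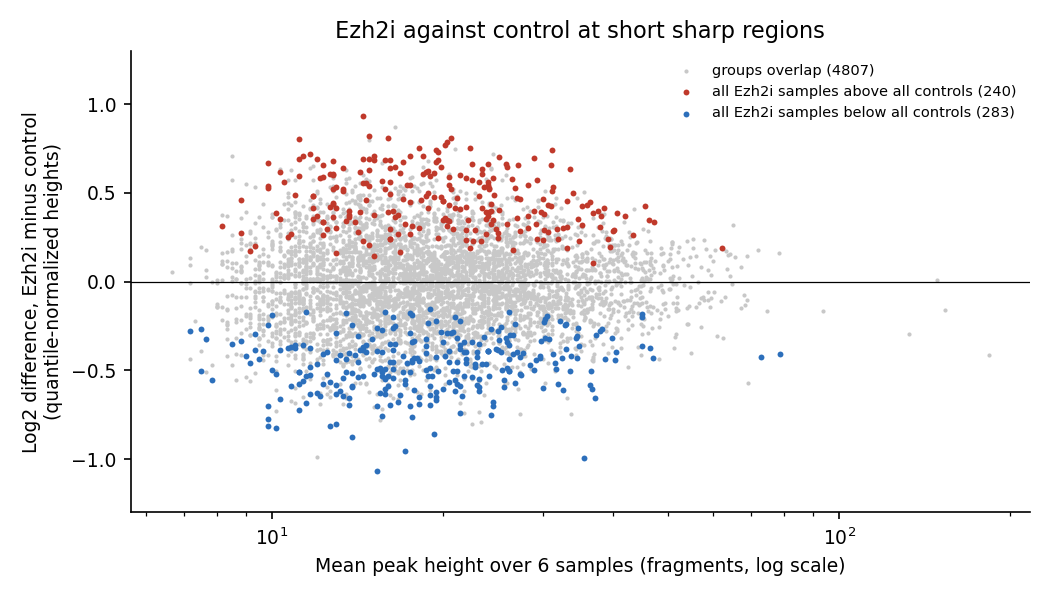
Log2 difference between Ezh2i and control samples in quantile-normalized height (vertical axis) against mean peak height in fragments (log scale) for the 5330 short sharp regions. Red points mark the 240 regions at which all Ezh2i samples were higher than all controls, blue points the 283 at which all were lower, and grey points those with overlapping groups, and the median was -0.017.

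Quantile normalization gives every list the same distribution of heights, so it cannot show a shift shared by all regions of a sample. With each height divided by the fragments of its library instead, the mean log2 height per 1000000 fragments of the short sharp regions was 1.59, 1.53 and 1.40 in the control libraries, by replicate number, against 1.63, 1.56 and 1.68 in the Ezh2i libraries. This gave 1.51 ± 0.098 for controls and 1.62 ± 0.057 for Ezh2i samples (SD, n = 3). The difference of 0.12 was close to the spread between controls. With the regions rebuilt from the remaining lists it fell to 0.059 without control 3. Leaving out any other single sample gave values from 0.090 (without Ezh2i sample 3) to 0.155 (without control 1). Control 3 was the lowest sample, and Ezh2i sample 2 lay below control 1. With this scaling the median log2 difference was 0.12 over the short sharp regions and 0.12 over all regions tested. All Ezh2i samples lay above all controls at 535 short sharp regions (10.0%, background 9.65%) and below at 121 (2.27%, background 1.9%), and 311 were higher and 45 lower at an unadjusted p-value under 0.05 (backgrounds 5.84% and 0.825%, or 6.66% in either direction). The predominance of higher regions with this scaling was thus as large in the background, and the smallest adjusted p-value in limma was 0.671.

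The short sharp regions were lower than the longer shared regions in every sample, but not by the same amount. The mean log2 height of the longer shared regions exceeded that of the short sharp ones by 0.64, 0.62 and 0.47 in controls 1, 2 and 3, and by 0.61, 0.54 and 0.60 in Ezh2i samples 1, 2 and 3. Control 3 had the smallest difference, and in rank its short sharp regions were the highest of the 6 samples. With the regions rebuilt from the 5 lists without control 3, the median log2 difference of the short sharp regions was 0.022 in place of -0.017, while over all regions tested it was -0.0027 in place of -0.0012. At an unadjusted p-value under 0.05, 258 short sharp regions (4.05%, background 3.04%) were then higher in Ezh2i and 177 (2.78%, background 2.87%) lower. Without Ezh2i sample 1 there were 190 higher (2.95%, background 2.60%) and 191 lower (2.97%, background 2.73%). Leaving out any other single sample gave median log2 differences from -0.045 (without control 1) to -0.0025 (without Ezh2i sample 3). The direction that prevailed among the short sharp regions thus turned without control 3 alone, and also with the scaling. Neither direction is given as a result.

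The residual standard deviation of the log2 height in limma had a median of 0.292 at the short sharp regions. At the longer shared regions it was 0.250. It varied with height, from 0.326 at mean heights of 10 to 15 fragments to 0.243 at 30 to 50 and 0.204 at 50 to 100, and was 0.354 at the 4 short sharp regions of 100 fragments or more. A region needed a called peak under 150 bases in all 6 lists. Regions with wider scatter were thus left out by the rule where a sample lost its peak or had a longer one. At the same mean heights of 15 to 20 fragments the classes had 0.309 and 0.312. At 30 to 50, 50 to 100 and 100 fragments or more the longer shared regions had 0.229, 0.179 and 0.133. Each of these was below the value of the short sharp regions. The ratio of the highest to the lowest of the 6 heights of a short sharp region had a median of 1.75.

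The regions with the largest differences are given next, 5 in each direction, out of the 523 at which the exposures did not overlap. They were chosen for their difference, and each had an adjusted p-value of 0.746 in limma, so they are a description. The largest increase was on chromosome 21 from 29226867 to 29227012, with 8, 11 and 9 fragments in the controls, against 18, 17 and 24 in the Ezh2i samples. Its means were 9.33 ± 1.53 and 19.7 ± 3.79 fragments (SD, n = 3) and its log2 difference was 0.93 (standard error 0.20). Every Ezh2i sample had at least 6 fragments more than the highest control.

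On chromosome 5, the region from 69594212 to 69594344 had 7, 10 and 14 fragments in the controls, against 19, 20 and 19 in the Ezh2i samples, a log2 difference of 0.82 (standard error 0.26). The region on chromosome 13 from 42759963 to 42760110 had 13, 14 and 15 fragments in the controls, against 30, 27 and 25 in the Ezh2i samples, a log2 difference of 0.81 (standard error 0.19). This was the tallest of the 5 and the one with the least scatter between controls, at 14.0 ± 1.00 against 27.3 ± 2.52 fragments (SD, n = 3). The region on chromosome 9 from 53422218 to 53422361, with 107 bases to the next short sharp region, had 9, 12 and 12 fragments in the controls, against 24, 18 and 21 in the Ezh2i samples, a log2 difference of 0.81 (standard error 0.20). On chromosome 6, the region from 58622772 to 58622914 had 7, 9 and 7 fragments in the controls, against 12, 13 and 19 in the Ezh2i samples, a log2 difference of 0.81 (standard error 0.21). In none of these 5 did a control reach the lowest Ezh2i sample.

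The largest decrease was on chromosome 5 from 43253653 to 43253773, with 16, 19 and 25 fragments in the controls, against 14, 7 and 11 in the Ezh2i samples, a log2 difference of -1.07 (standard error 0.26). The 6 summits of this region lay within 9 bases. On chromosome 11, the region from 18614203 to 18614341 had 49, 45 and 41 fragments in the controls, against 17, 26 and 35 in the Ezh2i samples, a log2 difference of -0.996 (standard error 0.25). It was the tallest of the 10 regions with the largest differences, and its means were 45 ± 4 and 26 ± 9 fragments (SD, n = 3). The Ezh2i samples scattered more widely there than the controls.

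The region on chromosome 16 from 42482767 to 42482913 had 16, 19 and 31 fragments in the controls, against 14, 15 and 8 in the Ezh2i samples, a log2 difference of -0.96 (standard error 0.32). Control 1 and Ezh2i sample 2 were only 1 fragment apart at this region. A second region of chromosome 11, from 652889 to 653041, had 16, 20 and 16 fragments in the controls, against 12, 8 and 11 in the Ezh2i samples, a log2 difference of -0.88 (standard error 0.19). On chromosome 22, the region from 16180789 to 16180940 had 25, 26 and 21 fragments in the controls, against 12, 17 and 15 in the Ezh2i samples, a log2 difference of -0.86 (standard error 0.21). The 10 regions lay on 8 chromosomes, and all but the one on chromosome 11 from 18614203 had mean heights between 11.2 and 20.7 fragments.

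**Figure D5:**
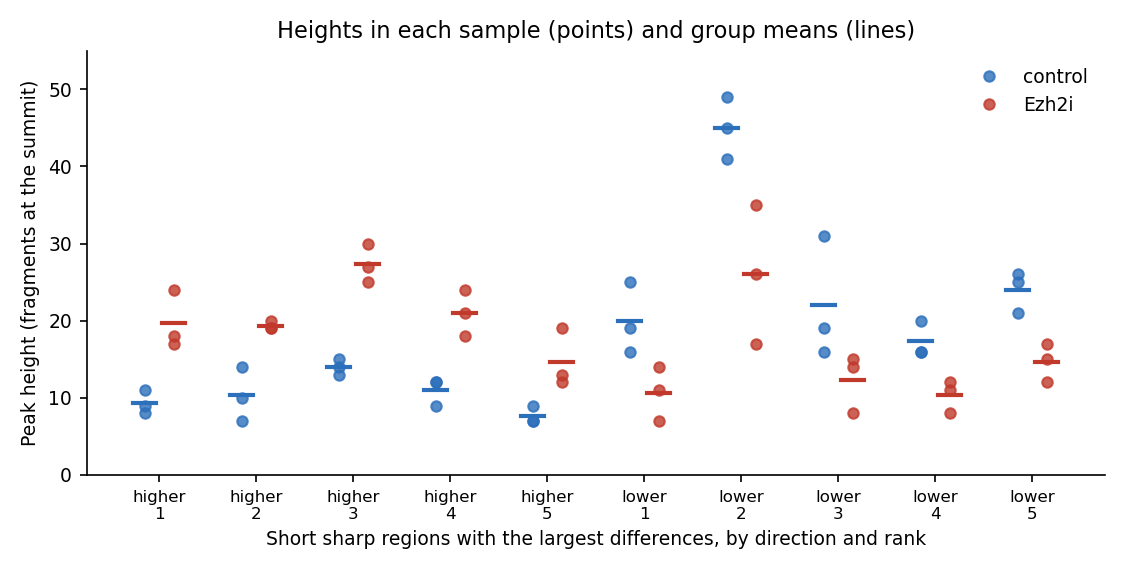
Peak height in fragments at the summit of the 5 short sharp regions with the largest increase (higher, ranks 1 to 5) and the 5 with the largest decrease (lower, ranks 1 to 5) among those with groups that did not overlap. Points are the 3 control (blue) and 3 Ezh2i (red) samples and short lines are group means, and most heights were under 32 fragments.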

How the data were processed

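Reads were trimmed with Trim Galore and aligned to GRCz11 with Bowtie2 through snakePipes by the authors, whose MACS2 calls (version 2.1.1.20160309) were made per sample with a q-value limit of 0.001 and no input library. The paper states that its limit on fragment length was raised to include a nucleosome, because read depth was too low. The part of this limit in peak length was not tested. The deposited signal is the pileup, the coverage at the summit by whole fragments. The deposited fold enrichment is its ratio to a background, with 1 added to each, where the range for a local background was 10000 bases. The −log10 p- and q-values deposited with each peak rest on the same pair of values and served only to select peaks in alternatives. At chromosome 5 from 69594212 and from 43253653 and chromosome 1 from 38537876 the mean background was the same, 0.363 fragments. It was thus not a local value at every region. The study tested raw read counts. No read counts were used here, so log2 heights were tested with limma. The outcomes of the 2 tests thus rest on unlike measures and sets of regions.

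The tallest peak of each list gave a region its height. Differences came from limma 3.58.1 (lmFit, eBayes; R 4.3.3) without a replicate block, and all else from Python 3.11.15. The fit was first run on simulated heights with the same scatter at every region, unlike the data. That run does not show which differences the fit could find here. The regions named are the 10 tallest, the 5 with the largest difference in each direction among those without overlap, the 3 most isolated, the 2 closest pairs and the densest 10000 bases. The members and lists were chosen with earlier results of these data known. Alternatives changed the merging, the length limit, the q-value, list length, sequences included, scaling, the fit and the samples. Base composition, motifs and genes were not analysed here. Positions count from 1.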

Additional observations from a re-analysis of the deposited data

How the results depend on the processing

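Under every alternative run, 0 short sharp regions had a limma adjusted p-value below 0.05, and the smallest one lay between 0.232 (missing peaks at the lowest height) and 0.999 (without Ezh2i sample 3). The length limit moved the description most. A limit of 120 bases gave 1014 regions with a median height of 17.4 fragments, a summit spread of 29 bases, a gap of 1480.5 bases, 44.3% with a region within 1000 bases, 64 with an unadjusted p-value under 0.05 and 83 without overlap, and a limit of 200 bases gave 14501, 21.2 fragments, 34 bases, 2116 bases, 36.6%, 983 and 1497. These counts followed the number of regions, as 6.31% and 6.78% had an unadjusted p-value under 0.05 (background 6.24%) and 8.19% and 10.3% were without overlap (background 11.1%). Summit spread was 31 bases with a −log10 q of at least 5 and with all sequences. Lists of equal length gave a height of 19.7 fragments, a spread of 30 bases and 39.4% within 1000 bases. Heights per 1000000 fragments gave a median log2 difference of 0.12. Filling missing peaks with the lowest height left 184 regions (3.45%, background 6.60%) with an unadjusted p-value under 0.05. No short sharp region had a missing peak, whereas this background is over 52189 regions that include filled ones. These shares are thus of unlike sets. Leaving out each sample in turn, with the regions rebuilt from 5 lists, gave 6086 to 6436 regions, heights of 18 to 18.2 fragments, spreads of 29 to 30 bases, gaps of 1852 to 2009 bases, 37.7% to 38.9% within 1000 bases and 333 (5.47%, background 4.80%) to 556 regions (8.69%, background 7.77%) with an unadjusted p-value under 0.05, the most without Ezh2i sample 2. Groups did not overlap at 1049 (17.2%, background 18.5%) to 1363 regions (21.3%, background 23.7%) then, as an arm held fewer samples.

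Deviations of same-numbered samples from their group means correlated at 0.098, -0.029 and -0.118. With 3 samples per group these values cannot decide whether replicate numbers paired the samples. With a replicate block 0 short sharp regions passed the adjusted and 349 (6.55%, background 5.98%) the unadjusted p-value. The median log2 difference, -0.017, turned to 0.022 without control 3 and to 0.12 with heights per 1000000 fragments. Directions also turned at named regions. Per 1000000 fragments the region of chromosome 10 from 27741498 had a log2 difference of 0.066, and with fold enrichment those of chromosome 7 from 6737 and chromosome 1 from 54120298 had 0.15 and -0.027. Leaving out samples gave log2 differences of -0.46 to 0.0052 at chromosome 17 from 46494056, -0.072 to 0.11 at chromosome 3 from 62628377, -0.53 to 0.19 at chromosome 7 from 6737, -0.18 to 0.34 at chromosome 1 from 14655786, -0.45 to 0.26 at chromosome 14 from 12071644, -0.41 to 0.14 at chromosome 10 from 27741498, -0.18 to 0.27 at chromosome 10 from 27741753 and -0.017 to 0.11 at chromosome 1 from 54120298. The cause of these changes was not tested. Heights near 18 fragments limit what single regions can show.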
